A study of Mus musculus with 18 samples.

Results

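Group 2 innate lymphoid cells (ILC2) are tissue-resident lymphocytes that lack rearranged antigen receptors and release type 2 cytokines. Here the genes of the splicing machinery and of the heterogeneous nuclear RNA-binding proteins are described in ILC2 of mouse bone marrow and lung. A gene was a member when its symbol began with Hnrnp, Srsf and a digit, Sf3a, Sf3b, Snrp or Ptbp and its counts summed to at least 30 over the 18 libraries. Of 24781 gene entries, 56 matched these symbols and 52 were members. Ptbp2 with 45 counts and Snrpa1 with 49 lay just inside that limit, while Hnrnpul1 with 16 counts and Hnrnpa1l2-ps2, Snrpn and Srsf12 with 0 counts lay outside. A filter on low counts left 37 members among 1916 tested genes, and the other 15 had summed counts of 45 to 124.

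Every mouse carried the Rag2 KO and so lacked mature T and B cells. Control libraries, titled WT by the submitters, came from Rag2 KO mice, and the CD45 KO libraries from CD45 KO x Rag2 KO mice. ILC2 were sorted as immature cells (ILC2P) and mature cells from bone marrow and as ILC2 from lung, with 3 libraries for each population and genotype. The labels give no age, sex or further strain detail, and they do not say whether the 3 libraries of a group came from separate mice, so the p-values measure the spread between these libraries, which may be technical.

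Introns are removed from pre-mRNA by the spliceosome, which is built from small nuclear ribonucleoproteins (snRNPs). The Sm proteins, encoded by several Snrp genes, form the ring around the RNA of most snRNPs, and the SF3A and SF3B subunits belong to the U2 snRNP that binds the branch point. SR proteins, encoded by the Srsf genes, bind exonic sequences and mostly favour exon inclusion, while hnRNP proteins coat nascent transcripts and often oppose it. PTBP proteins bind pyrimidine-rich stretches and repress nearby exons. The family has a particular tie to these mice, because CD45, a receptor tyrosine phosphatase of blood cells encoded by Ptprc, is itself a textbook case of alternative splicing: HNRNPL, HNRNPLL and PTBP1 bind its variable exons in lymphocytes. The values here are counts per gene, which do not resolve exons.

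The promoters of the members are shown because they carry a feature that the choice by symbol did not use. RefSeq start sites (GRCm38.p6) were matched for 45 of the 52 members, and the 250 bases upstream were searched on both strands. The ETS-family motif CCGGAAG was present upstream of 15 of 45 members (33.3%), against 1906 of 27025 promoters in all (7.05%). Among tested genes it was upstream of 9 of 33 members (27.3%) and 195 of 1483 genes (13.1%). By role it was upstream of 6 of 7 SF3 genes, 4 of 10 SR genes, 3 of 9 snRNP genes, 2 of 17 hnRNP genes and 0 of 2 PTBP genes. The examples below are the 80 bases before the start of 3 SF3 genes and 1 snRNP gene, with the ETS motif or its reverse complement in capitals. Their windows are chr11:4160274-4160353 on the plus strand for Sf3a1, chr19:5295458-5295537 on the minus strand for Sf3b2, chr12:4817528-4817607 on the plus strand for Sf3b6 and chr2:143062989-143063068 on the plus strand for Snrpb2.
Sf3a1: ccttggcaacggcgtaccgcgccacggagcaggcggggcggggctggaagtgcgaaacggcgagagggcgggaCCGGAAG
Sf3b2: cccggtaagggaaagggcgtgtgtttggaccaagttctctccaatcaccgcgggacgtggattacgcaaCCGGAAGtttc
Sf3b6: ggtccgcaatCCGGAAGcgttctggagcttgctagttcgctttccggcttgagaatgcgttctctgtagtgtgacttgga
Snrpb2: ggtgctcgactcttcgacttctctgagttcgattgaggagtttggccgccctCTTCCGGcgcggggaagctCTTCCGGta

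The CCAAT box (CCAAT) was upstream of 17 of the 33 tested members (51.5%) and 34.5% of tested genes, and of 44.4% of the 45 members and 34.5% of all promoters. The GC box (GGGCGG) was upstream of 66.7% of tested members and 62.5% of tested genes, and of 68.9% of the 45 members and 32.9% of all promoters. For the 4 other motifs the shares are those of tested members and tested genes. The cAMP response element TGACGTCA stood at 3.03% and 3.17%, the NRF1 core GCGCATGC at 3.03% and 4.79%, the E-box CACGTG at 9.09% and 9.58%, and the TATA box TATAAA at 9.09% and 7.35%. The 150 bases before the start follow for Hnrnpa1 and Hnrnpr, both lower in lung, and for Hnrnpc and Ptbp1, both higher in lung. Capitals mark the CCAAT box (or ATTGG, its reverse complement) in each, the GC box in Hnrnpa1 and the E-box in Ptbp1. The windows are chr15:103240247-103240396 (plus strand), chr4:136310792-136310941 (plus), chr14:52104022-52104171 (minus) and chr10:79854282-79854431 (plus), in that order.
Hnrnpa1: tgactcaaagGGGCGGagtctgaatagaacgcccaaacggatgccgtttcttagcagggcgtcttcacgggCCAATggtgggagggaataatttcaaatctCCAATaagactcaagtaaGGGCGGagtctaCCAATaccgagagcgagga
Hnrnpr: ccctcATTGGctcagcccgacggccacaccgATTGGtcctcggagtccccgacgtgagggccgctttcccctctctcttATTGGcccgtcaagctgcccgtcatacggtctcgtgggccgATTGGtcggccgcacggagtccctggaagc
Hnrnpc: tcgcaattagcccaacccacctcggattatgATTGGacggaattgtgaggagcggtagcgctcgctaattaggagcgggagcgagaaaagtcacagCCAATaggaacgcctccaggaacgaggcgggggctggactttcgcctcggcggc
Ptbp1: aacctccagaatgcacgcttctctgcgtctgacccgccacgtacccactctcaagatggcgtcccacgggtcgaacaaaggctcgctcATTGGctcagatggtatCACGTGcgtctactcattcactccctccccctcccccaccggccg

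Hnrnpa1 holds 3 CCAAT boxes in this window, 79, 49 and 19 bases before the start. Hnrnpr holds 4, all on the opposite strand. Among all members that passed between lung and marrow and had a promoter, the CCAAT box was upstream of 4 of 7 lower in lung and 3 of 3 higher. The GC box was upstream of 6 of 7 and 1 of 3. So few promoters cannot show whether a motif separates the directions. The matches describe sequence only, not bound sites.

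The libraries were shallow, with 68077 to 122250 counts and 7189 to 8793 genes detected in each. A tested member had a mean of 6.83 to 65.7 counts per library (median 19.8), and 3 counts in a library, the upper limit that a count of 0 allows, correspond to at most 44.7 CPM, counts relative to the library's total. Levels below are CPM on library sizes scaled by TMM, the trimmed mean of M-values. All 10 ILC2 markers were detected, summing to 6176 to 8570 CPM in marrow and 9512 to 11139 CPM in lung. Of 41 markers of 11 other cell types, 15 were at 0 in every library, and their sum was 81.0 to 195 CPM in lung and 121 to 2444 CPM in marrow. There were 3 libraries that stood apart. Neutrophil markers reached 2325 CPM in mature control replicate 1, and macrophage markers reached 153 CPM in lung CD45 KO replicate 1. The latter were 11 counts of Lyz2, Cd68 and Adgre1, while Csf1r, C1qa and C1qb were at 0 in every lung library. Ptprc was at 238 CPM in the library labelled mature CD45 KO replicate 1, against 101 and 88.0 CPM in the others of its group. Lung CD45 KO replicate 3 was close to that, at 229 CPM against 153 and 112 CPM in its group, but was not set apart. Mature control replicate 1 was at 253 CPM, against 458 and 541 CPM in the other mature controls. Ptprc fell in the CD45 KO by 1.68 ± 0.29 in mature marrow, 2.01 ± 0.31 in immature marrow and 1.86 ± 0.27 in lung (log2 fold change ± SE, edgeR quasi-likelihood test, adjusted p = 0.00015, 7.9e-06 and 6.28e-07).

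Among the members Hnrnpa3, an hnRNP A/B protein, had the most counts. Its mean over the 18 libraries was 696 CPM, followed by Hnrnpk at 438 CPM and Hnrnpf at 436 CPM. Within the other roles the highest means belonged to Snrpg (414 CPM) and Snrpd3 (249 CPM) among the Sm proteins, Srsf5 (373 CPM) and Srsf3 (282 CPM) among the SR proteins, Sf3b1 (336 CPM) and Sf3b2 (240.5 CPM) in the SF3 complex, and Ptbp3 (286 CPM) among the PTBP genes. These are counts not divided by length, so they rank read numbers rather than transcript numbers. Ptbp2, the neuronal paralogue, stayed between 0 and 80.2 CPM.

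The first question of the design is what loss of CD45 does within each population. No tested member passed the threshold (edgeR quasi-likelihood test, Benjamini-Hochberg adjusted p below 0.05 over 1916 genes) in immature, mature or lung ILC2. Among all tested genes 1.67% passed in immature marrow, 0.261% in mature marrow and 2.51% in lung. At an unadjusted p below 0.05 there were 5, 5 and 1 members, against 12.3%, 9.03% and 14.5% of all tested genes, and DESeq2's Wald test called 0 in each. DESeq2's independent filtering left 2 members in immature marrow and 28 in lung without an adjusted p. The median log2 fold change of the members was -0.05 in immature marrow, -0.07 in mature marrow and -0.02 in lung, beside -0.01, 0.00 and 0.01 over all tested genes.

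**Figure D1:**
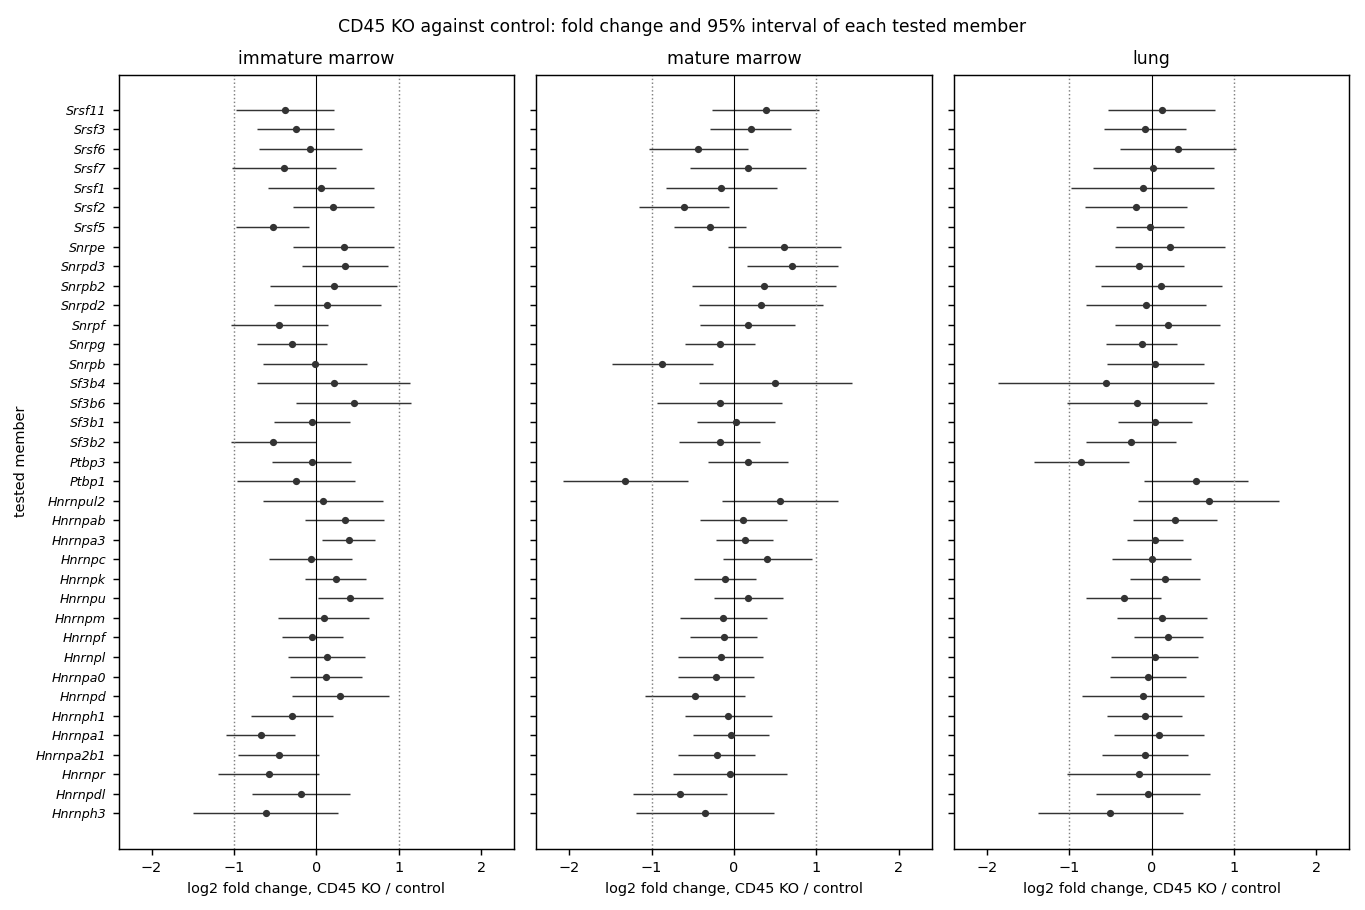
Log2 fold change of CD45 KO over control for each of the 37 tested members (points) with its 95% interval (bars), in immature marrow, mature marrow and lung. Dotted lines mark 2-fold changes, and the interval lay between them for 29, 23 and 29 members.

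The intervals show how large a change could have gone unseen. The 95% interval of the CD45 effect stayed inside 2-fold in either direction for 29 of 37 members in immature marrow, 23 in mature marrow and 29 in lung. Averaged over the 3 populations, a comparison added after the data were seen, 0 of 37 members passed (2.97% of all tested genes did), 4 had an unadjusted p below 0.05 (15.6% of all tested genes) and DESeq2 called 0, with 16 left without an adjusted p. All 37 intervals of that mean effect lay inside 2-fold, and 26 lay inside 1.5-fold.

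Hnrnpl and Hnrnpll, whose products act on CD45 exons, were measured at low to moderate levels. Hnrnpl counts corresponded to 181 to 297 CPM in lung and 211 to 394 CPM in marrow. Its change in the CD45 KO was -0.16 ± 0.26 in mature marrow, 0.12 ± 0.24 in immature marrow and 0.04 ± 0.26 in lung (log2 fold change ± SE). Averaged over the populations the interval ran from -0.28 to 0.28. Hnrnpll had 1 to 9 counts per library, 13.9 to 94.5 CPM, and was too low to test.

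Ptbp1, the widely expressed PTB protein, had the smallest p in mature marrow. The control libraries stood at 179, 180.4 and 170.4 CPM and the CD45 KO libraries at 71.5, 67.4 and 70.4 CPM. The groups do not overlap, on 12, 13 and 17 counts against 6, 8 and 8. The log2 fold change was -1.32 ± 0.38 with an adjusted p of 0.104, short of the threshold. In immature marrow the KO libraries held 128, 43.3 and 168 CPM against 144, 134 and 109.8 CPM, which overlap. In lung they held 278, 167 and 189 CPM against 198, 96.3 and 132 CPM, a difference of 0.54 ± 0.32 (adjusted p = 0.463).

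Snrpb and Snrpd3, both Sm proteins, followed in mature marrow. Snrpb was at 224, 180.4 and 281 CPM in control and 226, 101 and 79.2 CPM in the KO, a difference of -0.87 ± 0.31 (adjusted p = 0.297). The KO values split: replicate 1, the library with the higher Ptprc, lay within the controls and the other 2 below them, and without it the difference was -1.35 with an adjusted p of 0.0376. Without the 3 libraries that stood apart the adjusted p was 0.0585, and leaving out any other library of the comparison gave an adjusted p of 0.322 to 0.684. Snrpd3 was at 179, 194 and 190.5 CPM in control and 369, 329 and 238 CPM in the KO, a difference of 0.70 ± 0.28 (adjusted p = 0.38) with no overlap. In mature marrow 7 of the 37 members did not overlap between genotypes, against 12.8% of all tested genes.

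In immature marrow Hnrnpa1, a shuttling repressor of exon inclusion, came closest. Its level was 365, 434 and 598 CPM in control and 227, 320.2 and 315 CPM in the KO. All 3 KO values lay below the controls, and the difference was -0.68 ± 0.21 (adjusted p = 0.0909). Hnrnpa3 was at 509, 765 and 696 CPM in control and 956, 857 and 777 CPM in the KO, a difference of 0.39 ± 0.16 (adjusted p = 0.25). Srsf5, an SR protein, was at 431, 445 and 281 CPM against 256, 303 and 242 CPM (-0.53 ± 0.22, adjusted p = 0.266). Here 6 members did not overlap between genotypes, against 17.9% of all tested genes.

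In lung Ptbp3, a PTB paralogue of blood cells first known as ROD1, had the smallest p. It was at 276, 332 and 255 CPM in control and 125, 177 and 162 CPM in the KO. Every KO library lay below every control, and the difference was -0.85 ± 0.29 (adjusted p = 0.0989). When the 6 lung libraries were fitted alone it was -0.94 with an adjusted p of 0.0401. It was -0.72 without lung CD45 KO replicate 1 (adjusted p = 0.33), without lung control replicate 2 (adjusted p = 0.327) and without the 3 libraries that stood apart (adjusted p = 0.244). In lung the summed immediate-early genes described below were also higher in every CD45 KO library than in every control, and their part in these differences was not tested. Hnrnpul2 was at 77.2, 74.9 and 61.6 CPM in control and 209, 83.7 and 67.5 CPM in the KO (0.69 ± 0.43, adjusted p = 0.508), where only replicate 1, the library with the macrophage markers, stood apart. The last 500 bases of the Hnrnpul2 gene overlap AC129217.1 on the same strand. In all, 2 members did not overlap between genotypes, against 19.7% of all tested genes.

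Whether the CD45 effect differed between lung and marrow was tested in the same fit, as the lung effect minus the mean of the marrow effects. No member passed (1.25% of all tested genes did), 4 had an unadjusted p below 0.05 against 13.2% of all tested genes, and DESeq2 called 0, though it left 36 without an adjusted p. Those 4 were 2 PTBP genes, 1 hnRNP gene and 1 snRNP gene. Ptbp1 came nearest, with a difference of 1.33 ± 0.41 and an adjusted p of 0.0897. This value moved both ways with single libraries. The adjusted p was 0.044 without immature CD45 KO replicate 3 (difference 1.52) and 0.0429 without lung control replicate 1 (1.63). It was 0.261 without lung CD45 KO replicate 1 (1.12), 0.226 without lung control replicate 2 (1.15) and 0.173 without immature CD45 KO replicate 2 (1.12). Without the 3 libraries that stood apart it was 0.272 (1.12). Ptbp3 differed the other way, by -0.91 ± 0.34 (adjusted p = 0.17).

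The levels of this pair can be set against each other within a library. The count of Ptbp3 over that of Ptbp1 was 0.45 to 1.06 in the 3 lung CD45 KO libraries. It was 1.39 to 3.44 in lung control, 1.59 to 1.85 in mature control, 3.25 to 7.5 in mature CD45 KO, 1.85 to 3.67 in immature control and 1.56 to 8 in immature CD45 KO. The 3 lung CD45 KO libraries were thus below the other 15, and the mature CD45 KO libraries were above the mature controls. The ratio was formed after the values were seen and has no test, and the immediate-early sums also separate the lung CD45 KO libraries from the other 15. Summed counts behind it were 52 for Ptbp1 and 40 for Ptbp3 in lung CD45 KO, and 22 and 106 in mature CD45 KO.

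The second question is how mature marrow ILC2 differ from immature ones. In control libraries 0 of 37 members passed, with 0.0522% of all tested genes called, and in CD45 KO libraries 0 members passed, with 0.678% called. Members with an unadjusted p below 0.05 numbered 1 and 2, against 5.38% and 8.04% of all tested genes, and DESeq2 called 0 in both. The smallest p belonged to Hnrnpa1 in control, with a log2 fold change of -0.53 ± 0.22 for mature over immature cells (adjusted p = 0.858), and to Srsf2 in the CD45 KO (-0.68 ± 0.26, adjusted p = 0.328).

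The third question is how lung ILC2 differ from those of marrow, and here members did pass. Over both genotypes and both marrow stages, a comparison added after the data were seen, 12 of 37 members passed (32.4%), 3 higher and 9 lower in lung, while 42.4% of all tested genes passed, 21.8% higher and 20.7% lower. The members' share was below that background, but their fold changes leaned downward: 30 of 37 lay below 0 (81.1%), against 52.6% of all tested genes. Their median was -0.20 beside -0.03 over all tested genes. Scaling by library totals alone moved the all-gene median to 0.08 and the members' median to -0.10, with 4 members higher and 8 lower.

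**Figure D2:**
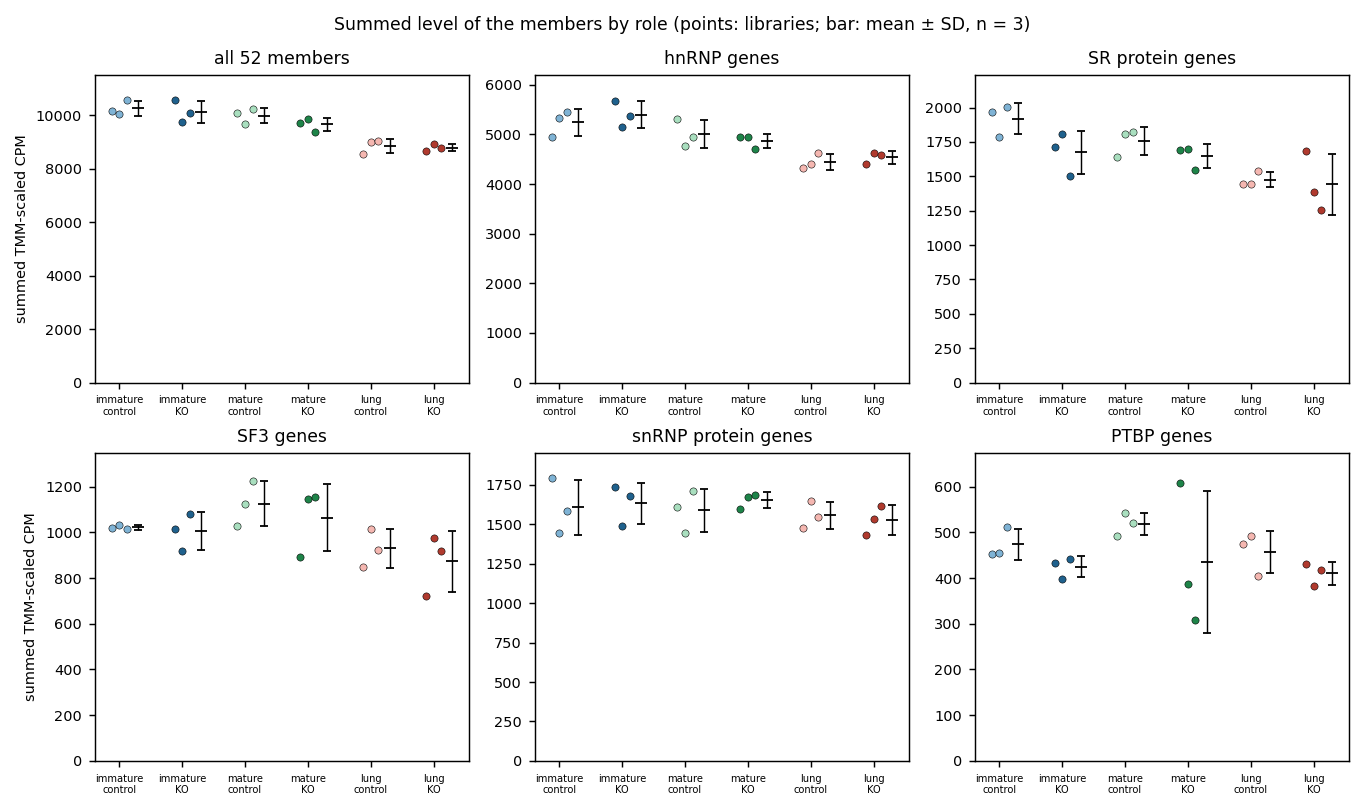
Summed CPM (TMM-scaled, linear axes from 0) of all 52 members and of each role, 1 point per library, with mean ± SD (n = 3) beside each group. The 6 lung libraries sit at 8564 to 9030 CPM over all members and the 12 marrow libraries at 9397 to 10577 CPM. The SR, SF3, snRNP and PTBP sums overlap between the tissues.

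Summed over the 52 members, the level was 8564 to 9030 CPM in the 6 lung libraries (median 8856) and 9397 to 10577 CPM in the 12 marrow libraries (median 10066). The tissues do not overlap on this scale, but they do as plain shares of all counts, 0.896% to 0.967% in lung and 0.915% to 1.05% in marrow. The hnRNP genes held most of it, with 4321 to 4634 CPM in lung and 4698 to 5678 CPM in marrow, which likewise overlap as plain shares. SR genes summed to 1255 to 1683 CPM in lung and 1502 to 2001 CPM in marrow, SF3 genes to 723 to 1016 CPM and 894 to 1223 CPM, and snRNP genes to 1432 to 1647 CPM and 1444 to 1791 CPM. Fewer cells expressing a gene and less RNA of it per cell cannot be told apart in such bulk libraries. A list of 17 immediate-early genes, which respond to stimulation and to tissue handling, summed to 497 to 942 CPM in marrow, 10504 to 12014 CPM in lung control and 15896 to 17215 CPM in lung CD45 KO. The genotypes did not overlap in lung. The part of these differences in the lung results, those for CD45 included, was not tested.

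Of 17 tested hnRNP genes, 7 passed between lung and marrow (41.2%, close to the 42.4% of all tested genes). Of these, 5 were lower and 2 higher in lung. Hnrnpa1 (chr15:103240432-103246692, plus strand, GRCm38) ranged over 182, 199 and 250.3 CPM in lung (lowest, median, highest of 6) and 227, 318 and 598 CPM in marrow (of 12). Only 1 marrow library lay below the highest lung library, and the level fell by 0.71 ± 0.15 (adjusted p = 8.37e-05). Hnrnpr, an hnRNP with several RNA recognition motifs, ranged over 64.2, 77.7 and 99.2 CPM in lung and 84.0, 131 and 258 CPM in marrow (-0.86 ± 0.24, adjusted p = 0.00179).

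Hnrnpk, a KH-domain protein that binds C-rich RNA, ranged over 319.9, 342 and 459 CPM in lung and 382, 493 and 537 CPM in marrow (-0.41 ± 0.12, adjusted p = 0.00471). It did not pass without the filter on low counts (adjusted p = 0.127). Hnrnpd, also called AUF1, which binds AU-rich messages, ranged over 41.7, 119 and 135 CPM in lung and 131, 169 and 253 CPM in marrow (-0.65 ± 0.21, adjusted p = 0.0076). Without lung CD45 KO replicate 1, its lowest library, Hnrnpd did not pass (-0.47, adjusted p = 0.0703). Hnrnpu, the scaffold attachment factor, ranged over 251, 338 and 397 CPM in lung and 278, 432 and 609 CPM in marrow (-0.42 ± 0.13, adjusted p = 0.00867), and did not pass without lung CD45 KO replicate 2 (-0.34, adjusted p = 0.0704).

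The hnRNP genes higher in lung were Hnrnpc and Hnrnph1. Hnrnpc, whose protein coats U-rich stretches of nascent RNA, ranged over 236, 329 and 363 CPM in lung and 125, 236 and 298 CPM in marrow (0.46 ± 0.15, adjusted p = 0.00943). Hnrnph1, which binds G-runs, ranged over 256, 302 and 378 CPM in lung and 177, 232 and 299.8 CPM in marrow (0.46 ± 0.15, adjusted p = 0.00806). The tissues overlap in both. Hnrnpa3, the member with the most counts, differed by -0.05 ± 0.10 (adjusted p = 0.745).

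**Figure D3:**
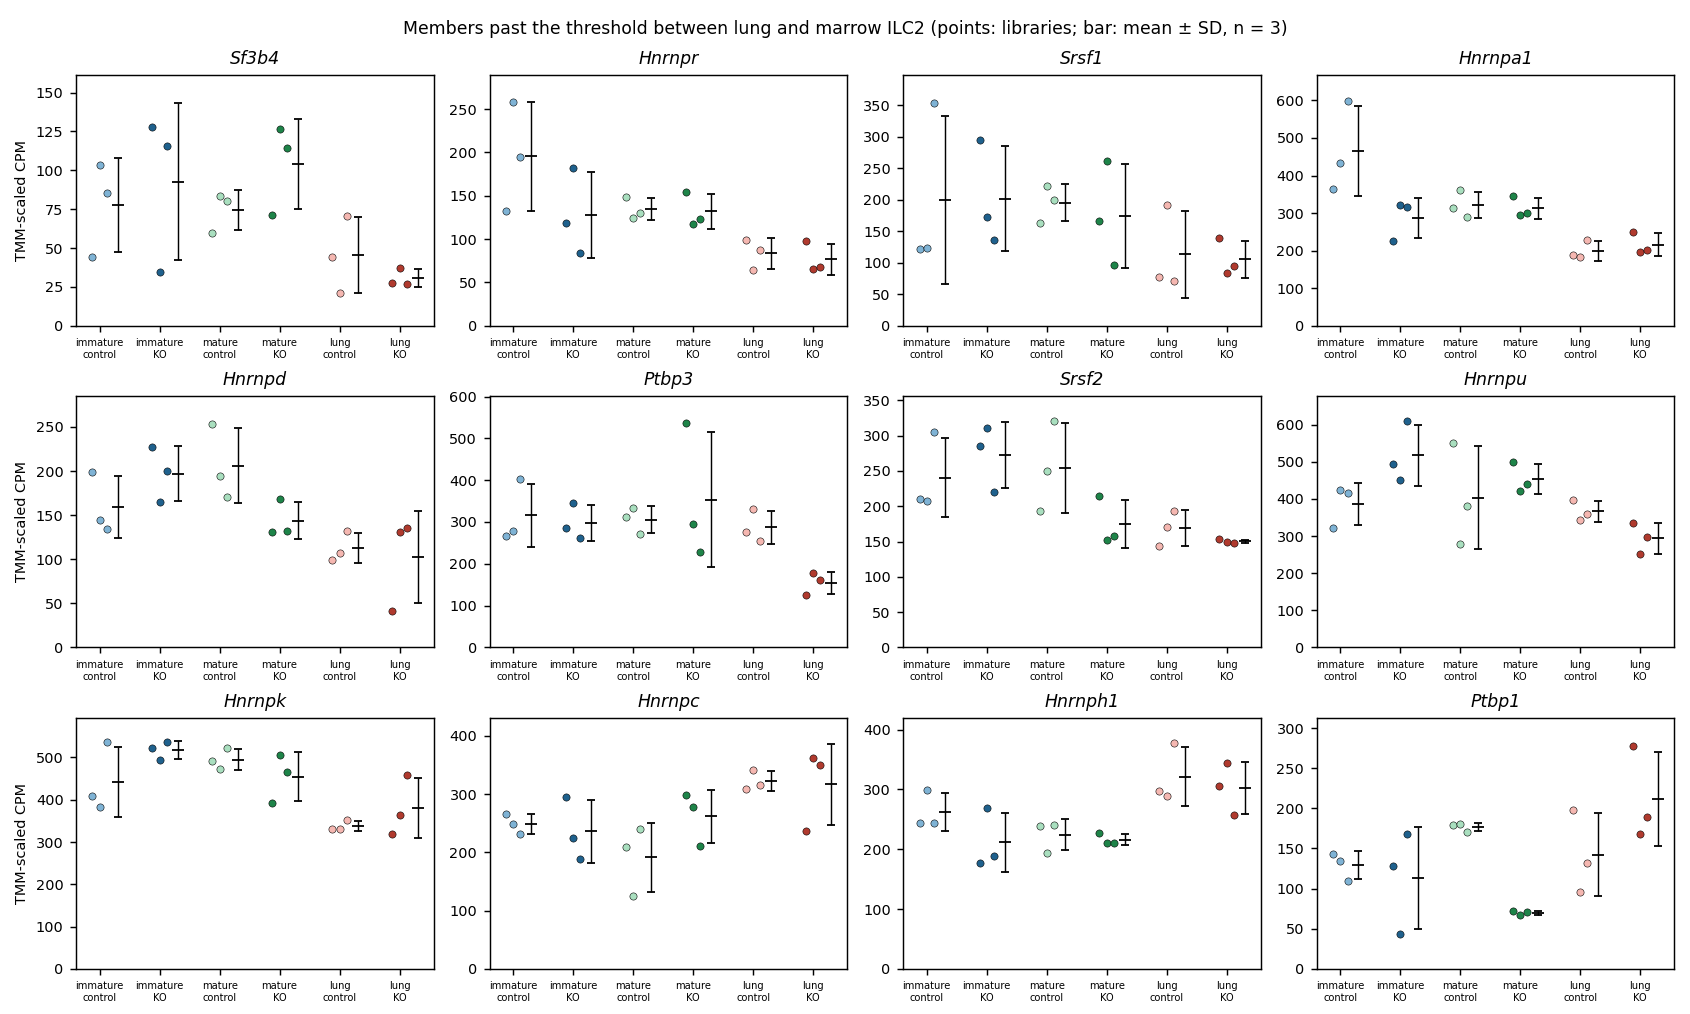
TMM-scaled CPM (linear axes from 0) of the 12 members past the threshold between lung and marrow, 1 point per library in the 6 groups, with mean ± SD (n = 3). By group mean Ptbp1 is lowest in the mature CD45 KO (67.4 to 71.5 CPM) and Ptbp3 in the lung CD45 KO (125 to 177 CPM). The lowest single Ptbp1 library is immature CD45 KO replicate 2, at 43.3 CPM.

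Of 7 tested SR genes 2 passed (28.6%, against 42.4% of all tested genes), both lower in lung. Srsf1, the SR protein also known as ASF/SF2, ranged over 70.3, 89.1 and 193 CPM in lung and 96.8, 169.9 and 354 CPM in marrow (-0.84 ± 0.24, adjusted p = 0.00246). The lung value of 193 CPM was control replicate 2. Srsf2, also called SC35, ranged over 143, 151 and 193 CPM in lung and 152, 218 and 321 CPM in marrow (-0.54 ± 0.18, adjusted p = 0.0102). Srsf2 did not pass without the filter on low counts or with DESeq2's Wald test (adjusted p up to 0.121). Of 4 tested SF3 genes 1 passed (25%, against the same 42.4%). This was Sf3b4, at 21.4, 32.5 and 70.3 CPM in lung against 34.6, 84.4 and 128 CPM in marrow (-1.15 ± 0.35, adjusted p = 0.00543). It rested on 2 to 8 counts per lung library. Sf3b1, the branch-point-binding core of the complex, did not pass (0.20 ± 0.14, adjusted p = 0.242). None of the 7 tested snRNP genes passed, where 42.4% of all tested genes did. Of their intervals 4 lay inside 1.5-fold, and the smallest adjusted p was 0.204. An unadjusted p below 0.05 was seen for 0 of them and for 48.9% of all tested genes. Snrpg differed by -0.03 ± 0.13.

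Both tested PTBP genes passed, in opposite directions, where 42.4% of all tested genes passed. Ptbp3 (chr4:59471868-59549364, minus strand) ranged over 125, 216 and 332 CPM in lung and 229, 290.3 and 536 CPM in marrow (-0.56 ± 0.17, adjusted p = 0.0043). Ptbp1 (chr10:79854427-79864771, plus strand) ranged over 96.3, 178 and 278 CPM in lung and 43.3, 131 and 180.4 CPM in marrow (0.56 ± 0.21, adjusted p = 0.0233). Ptbp1 did not pass without lung control replicate 1 (0.45, adjusted p = 0.124), lung CD45 KO replicate 1 (0.48, 0.0909) or immature CD45 KO replicate 2 (0.47, 0.0555). Leaving out together the 3 libraries that stood apart left 11 members past the threshold, and Hnrnpd, Ptbp1 and Ptbp3 were not among them (adjusted p = 0.0855, 0.105 and 0.069).

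Taken by genotype and stage, the share of members that passed in either direction was below the background in each comparison. In control libraries, lung against mature marrow gave 4 of 37 (10.8%, 1 higher and 3 lower) where 25.6% of all tested genes passed (15.0% higher, 10.6% lower). Lung against immature marrow gave 2 (5.41%, both lower) where 25.5% passed (14.6% higher, 10.9% lower). In CD45 KO libraries 4 members passed against mature marrow (10.8%, 1 higher and 3 lower), with 24.3% of all tested genes (14.8% higher, 9.55% lower). Against immature marrow 7 passed (18.9%, 2 higher and 5 lower), with 25.3% (15.7% higher, 9.55% lower). The members called lower were a smaller share than among all tested genes in every comparison but this last (5 of 37, against 9.55%). Of these 5 only Hnrnpu kept its call without each library in turn. At an unadjusted p below 0.05 the members' shares were 24.3%, 10.8%, 21.6% and 35.1% in the order above. All tested genes stood at 35.3%, 35.4%, 32.8% and 34.6%. The comparisons within a genotype share their lung libraries, and each shares libraries with the CD45 comparisons above.

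The control comparison with immature marrow was led by Hnrnpa1, at 187, 182 and 229 CPM in lung against 365, 434 and 598 CPM (-1.20 ± 0.23, adjusted p = 1.98e-05). Every lung library was below every immature one, and the call held without each library in turn (highest adjusted p 0.00245). Hnrnpr fell from 133, 258 and 195 CPM to 99.2, 64.2 and 87.9 CPM (-1.22 ± 0.34, adjusted p = 0.0043), but did not pass without immature control replicate 2 (-0.94, adjusted p = 0.0863). Without lung control replicate 2 the count of members rose from 2 to 4.

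Against mature control marrow Srsf6, an SR protein, fell from 209, 167 and 211 CPM to 77.2, 107 and 123 CPM (-0.91 ± 0.33, adjusted p = 0.0291). Hnrnpk (-0.55 ± 0.20, adjusted p = 0.0345) and Hnrnpa1 (-0.66 ± 0.25, adjusted p = 0.0448) fell, and Hnrnpc rose (0.71 ± 0.26, adjusted p = 0.0335). No member passed without mature control replicate 1, which held the neutrophil markers, or without lung control replicate 1, and 1 to 2 passed without any other library. With library totals alone the calls became 2 higher and 0 lower, since that scaling moved the all-gene median from -0.03 to 0.12 and the members' from -0.20 to -0.04. Directions in this comparison therefore hold relative to the median gene.

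In the CD45 KO, Ptbp1 rose from 71.5, 67.4 and 70.4 CPM in mature marrow to 278, 167 and 189 CPM in lung (1.55 ± 0.36, adjusted p = 0.000424). This call held without each library in turn (highest adjusted p 0.00984). Its change in control libraries was -0.32 ± 0.33 (adjusted p = 0.53). Against immature marrow it rose by 0.91 ± 0.33 in the KO (adjusted p = 0.032), where 1 immature library reached into the lung range. That call was lost without immature CD45 KO replicate 2 (0.50, adjusted p = 0.343), without lung CD45 KO replicate 1 (0.72, adjusted p = 0.194) and with DESeq2 (adjusted p = 0.116). Ptbp3 fell from 536, 295 and 229 CPM in mature marrow to 125, 177 and 162 CPM in lung (-1.10 ± 0.28, adjusted p = 0.00111) and by 0.93 ± 0.28 against immature marrow (adjusted p = 0.0088). The first of these was lost without mature CD45 KO replicate 1, its highest library (-0.71, adjusted p = 0.0805), and the other without immature CD45 KO replicate 2 or lung CD45 KO replicate 1 (adjusted p at most 0.0739).

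Hnrnpu fell in lung against both marrow stages of the CD45 KO. It was at 500.4, 421 and 439.9 CPM in mature marrow, 493, 450.0 and 609 CPM in immature marrow and 334, 251 and 297 CPM in lung. No marrow library overlapped the lung ones, and the log2 fold changes were -0.64 ± 0.22 (adjusted p = 0.0225) and -0.83 ± 0.22 (adjusted p = 0.00152). The second held without each library in turn, and the first was lost without mature CD45 KO replicate 1, lung CD45 KO replicate 2 or lung CD45 KO replicate 3. Sf3b4 also fell against both, to 27.8, 37.2 and 27.0 CPM in lung, from 71.5, 126 and 114 CPM in mature marrow (-1.72 ± 0.56, adjusted p = 0.0137) and 128, 34.6 and 116 CPM in immature marrow (-1.48 ± 0.58, adjusted p = 0.0477). The calls for Sf3b4 lay at the edge. The first was lost without lung CD45 KO replicate 3 (adjusted p = 0.0503) and with DESeq2 (0.0644). The second was lost in 4 of the 5 leave-outs that gave a value, those of the 3 lung CD45 KO libraries and of immature CD45 KO replicate 3 (adjusted p up to 0.168), and in 7 of 7 other settings (up to 0.165).

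A further 3 members passed against immature marrow of the CD45 KO. Srsf2 fell from 286, 312 and 221 CPM to 153, 149 and 148 CPM (-0.87 ± 0.28, adjusted p = 0.013). Hnrnpd fell from 227, 164 and 199.6 CPM to 41.7, 130.3 and 135 CPM (-0.87 ± 0.33, adjusted p = 0.0395). Srsf5 rose from 256, 303 and 242 CPM to 473, 382 and 418 CPM (0.64 ± 0.22, adjusted p = 0.0228). In all 3 the groups do not overlap, but the calls rest on single libraries. Srsf2 was lost without immature CD45 KO replicate 2 (adjusted p = 0.0915) or lung CD45 KO replicate 2 (0.0627). Hnrnpd was lost without lung CD45 KO replicate 1 (-0.53, adjusted p = 0.331), immature CD45 KO replicate 1 (-0.74, 0.16) or immature CD45 KO replicate 3 (-0.85, 0.087). Srsf5 was lost without each of the same 3 libraries (adjusted p = 0.0871, 0.0655 and 0.0812). With DESeq2 the adjusted p was 0.0904 for Srsf2, 0.159 for Hnrnpd and 0.0708 for Srsf5. Without lung CD45 KO replicate 1 the count of members was 3, without immature CD45 KO replicate 1 it was 4, and without the 3 libraries that stood apart it was 4. Against mature marrow of the CD45 KO the count was 2 without lung CD45 KO replicate 3.

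**Figure D4:**
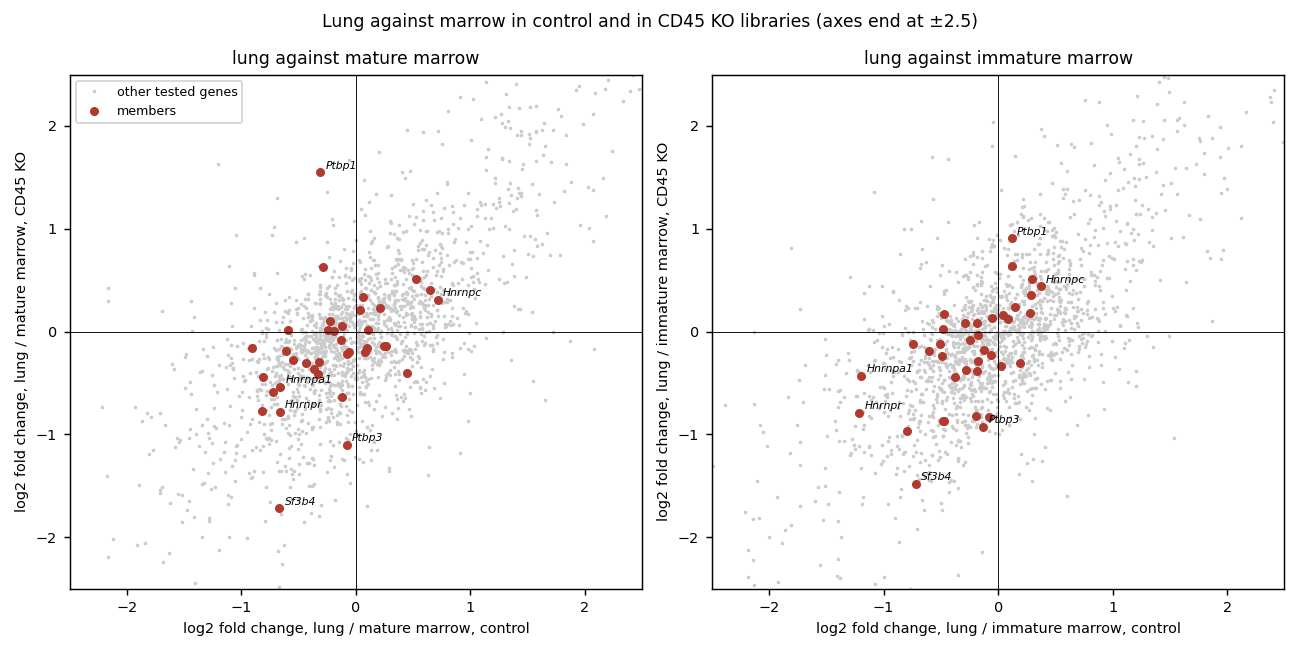
Log2 fold change of lung over marrow in control libraries (x axis) and in CD45 KO libraries (y axis), for mature marrow (left) and immature marrow (right). Red points are the 37 tested members and grey points the other tested genes, and Ptbp1 is the member farthest above the rest on the left, at -0.32 in control and 1.55 in the CD45 KO.

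The control and CD45 KO comparisons share no library, so their signs can be compared. Against mature marrow 25 of 37 members had the same sign in both genotypes (67.6%), beside 73.6% of all tested genes, and against immature marrow 30 of 37 (81.1%), beside 73%. Of the 37 members, 18 were lower in lung in both genotypes against mature marrow and 21 against immature marrow. Among the 1916 tested genes these counts were 734 and 731.

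A list of 108 other splicing genes (helicases, kinases of SR proteins, exon junction and U1-associated proteins), not chosen by symbol, had 53 tested genes. By edgeR none passed in any CD45 or stage comparison. An unadjusted p below 0.05 was seen for CD45 in 6 in immature marrow, 5 in mature marrow and 5 in lung, in 4 for the difference between tissues, in 7 for the mean of the populations and in 1 in each stage comparison. DESeq2 called 0 of them in the same comparisons, leaving 8 in immature marrow, 44 in lung, 50 for the difference and 37 for the mean without an adjusted p. Over both genotypes 16 of 53 (30.2%) passed between lung and marrow, 4 higher and 12 lower, while 42.4% of all tested genes passed. DESeq2 called 8 of them, and 10 of the members. The 42.4% is the edgeR share, and the DESeq2 share of all tested genes is not given here. The median log2 fold change of the list was -0.23, beside the members' -0.20. Ddx5, a DEAD-box RNA helicase, had the smallest p. It was at 641 to 1072 CPM in the marrow libraries and 2051 to 2492 CPM in the lung libraries, with no overlap (1.39 ± 0.09, adjusted p = 2.78e-26).

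Luc7l3, a U1-associated protein, was lower in lung, at 54.0 to 99.2 CPM against 135 to 301 CPM in marrow (-1.54 ± 0.22, adjusted p = 5.89e-09). Isy1, a spliceosome subunit, was at 11.9 to 122 CPM in marrow and 128 to 306 CPM in lung (1.83 ± 0.23, adjusted p = 4.91e-11), but the last 500 bases of its gene overlap Gm45140 on the same strand. Clk1, a kinase that phosphorylates SR proteins, rose by 0.65 ± 0.16 (adjusted p = 0.000489). Rbm25, a splicing regulator, fell by 0.62 ± 0.16 (adjusted p = 0.00108). The 3 genes with the smallest p in this list moved further than any passing member in the same comparison, for which the largest change was that of Sf3b4.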

How the data were processed

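The deposited values are whole-number read counts per gene symbol made by the authors, 1 column per library; per the submitters' processing notes STAR and mm10 were used. Not given in the sources used here are versions, the counter, the annotation, strand use and whether molecular barcodes were collapsed. Per the labels' protocols, cDNA was primed with a barcoded oligo-dT primer, tagged by template switching and PCR-amplified; 200 sorted cells are stated in one place and 100 cells per tube in another. Reads of near-identical copies (pseudogenes of hnRNP and snRNP genes) and of overlapping genes are therefore uncertain. Of the members named above, GENCODE M21 places a same-strand gene within 500 bases of the 3′ end at Hnrnpul2 (AC129217.1). It places opposite-strand genes there at Ptbp1 (Plppr3, Gm17134), Hnrnpu (Cox20) and Srsf2 (Mettl23).

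Libraries were grouped by the labels into 6 groups of 3. edgeR 4.0.16 (R 4.3.3) was fitted to all 18 libraries with TMM factors, filterByExpr (minimum count 10) and 6 group means; the quasi-likelihood test was adjusted by Benjamini-Hochberg over 1916 genes, with a threshold of 0.05. SE is the absolute log2 fold change over the square root of F, and 95% intervals use the t quantile. Alternatives were DESeq2 1.42.0 (size factors, Wald test), other filters, library totals, the replicate block and leaving out libraries. The edgeR script and the motif search were tested on simulated data. With 68077 to 122250 counts per library, floors cover counting error only.

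The members and gene lists were chosen with earlier results of these data known. Named were members passing in any of the 10 comparisons, the 2 with the highest mean CPM per role, the 3 with the smallest p for CD45 in mature marrow, immature marrow and lung each, and up to 5 of the other splicing genes per comparison. For the difference in CD45 effect between tissues only Ptbp1 and Ptbp3 were named. Hnrnpf, Hnrnpl, Hnrnpll, Hnrnph1, Srsf1, Ptbp2 and the promoters shown were added after their values were seen. For each gene the first listed RefSeq promoter was used.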

Additional observations from a re-analysis of the deposited data

How the results depend on the processing

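Of 29 passing results of single members in the 5 comparisons of lung with marrow, 12 kept their call without each library in turn, 9 kept it under these and the other alternatives run, and 0 reversed direction. Both counts include Sf3b4 over all, for which only 16 of the 18 leave-outs gave a value. For CD45, library totals alone let 1 member pass in immature marrow (Hnrnpa1, -0.75, adjusted p = 0.0485, but 0.451 without immature control replicate 3), and fitting only the libraries of the contrast let 1 pass in lung (Ptbp3, -0.94, adjusted p = 0.0401). Members past the threshold changed as follows: lung against mature control marrow, 4, gave 0 without the low-count filter, 0 with DESeq2's Wald test, 2 with library totals alone and 0 without the 3 libraries that stood apart (an alternative, like library totals, chosen after seeing the data). Lung against immature control marrow, 2, gave 1 without the filter. Lung against mature CD45 KO marrow, 4, gave 2 with DESeq2. Lung against immature CD45 KO marrow, 7, gave 1 without the filter, 1 with DESeq2 and 4 without the 3 libraries. Where the filter was dropped more genes were tested, and otherwise the cause was not tested. These counts stand without the share of all tested genes in the same setting. They therefore do not show whether members changed more than other genes. Leaving out 1 library at a time gave 0 to 1 members for CD45 in mature marrow, 0 to 0 in immature marrow and in lung, 0 to 1 for their difference, 0 to 2, 2 to 4, 2 to 6 and 3 to 6 in the 4 lung comparisons in the order above, and 11 to 15 over all. With 2 libraries left, a group still shares the spread of the others.

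The replicate number as a block gave 4, 2, 4 and 7 members in the 4 lung comparisons, 12 over all and 0 in each CD45 and stage comparison. Of single members it ended 1 call, Sf3b4 against immature CD45 KO marrow (adjusted p = 0.0544). Of 27 pairs of libraries with the same number, 0 had deviations that correlated above 0.1 (-0.09 to 0.08). This check cannot decide whether the numbers pair the libraries. The mean counts of the tested genes had a median of only 12.6, so counting error could hide deviations that paired libraries share.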
